A study of Mus musculus with 6 samples.

Results

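Mitochondrially encoded transcripts were examined in the entire aorta of Apoe-/- mice, with all genes whose symbol starts with mt- taken as members. There were 37 such genes among the 47643 genes of the count table: 13 protein-coding, 2 rRNA and 22 tRNA genes, which is the full gene content of mouse mitochondrial DNA in the GENCODE M21 annotation. RNA sequencing gave 3 libraries from mice injected intraperitoneally for 4 weeks with recombinant human erythropoietin (EPO, the red cell hormone), the daily dose being 5000 IU/kg, which the series description calls a medium dose, and 3 from mice injected with saline over the same time (Vehicle). All 6 libraries came from the Apoe-/- strain, which lacks the lipid carrier apolipoprotein E, so that allele does not differ between the groups; ages are not used here. Total counts per library ran from 28798632 to 38502430 in EPO and from 23278649 to 27904322 in Vehicle. That each library is a separate animal is not stated, and p-values then measure only library-to-library spread, which may be technical.

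Mitochondrial DNA is a circular molecule that encodes core subunits of respiratory complexes I, III and IV and of ATP synthase, together with the rRNAs and tRNAs needed to translate them inside the organelle. All other subunits are encoded in the nucleus and imported. A single RNA polymerase transcribes each strand into long precursors, and tRNAs lying between the larger genes are cut out to release the rRNAs and mRNAs, so that genes of the same strand start from shared precursors. Cell types differ widely in mitochondrial content, and brown fat, a tissue rich in mitochondria, lies around part of the mouse aorta.

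Nuclear DNA holds old copies of mitochondrial DNA. Reported here are 15 annotated nuclear gene models of the count table that matched a member at 90% identity or more over at least 80% of the model. Of these, 7 lie together on chromosome 1 (GRCm38 chr1:24611535-24616197, minus strand) and copy the stretch from the end of mt-Co1 to the middle of mt-Nd4 in the same order. The distance between neighbouring models there equalled that on the mitochondrial chromosome at 5 of 6 junctions and was 74 against 73 bases at the sixth. The copies Gm28661 of mt-Co2, Gm10925 of mt-Atp6, Gm28437 of mt-Co3, Gm10222 of mt-Nd4l and Gm28439 of mt-Nd4 matched letter for letter over 681, 678, 783, 294 and 876 bases. Gm28438 differed from mt-Nd3 at 1 of 345 aligned bases. Gm29216 differed from mt-Co1 at 1 of 483 aligned bases, and the start of this 492-base model did not align. The first 100 bases of mt-Co2 (chrM:7013-7112, plus strand) are printed with those of Gm28661 (chr1:24615466-24615565, minus strand) and of Gm13341, a less similar copy (chr2:22587863-22587962, minus strand), to show what a read has to tell apart; sequences are from GENCODE M21, 5′ to 3′, and capitals mark bases that differ from mt-Co2.
mt-Co2: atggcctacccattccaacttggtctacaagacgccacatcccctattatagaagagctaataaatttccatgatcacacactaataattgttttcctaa
Gm28661: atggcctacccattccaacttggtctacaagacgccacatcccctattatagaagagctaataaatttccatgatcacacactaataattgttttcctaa
Gm13341: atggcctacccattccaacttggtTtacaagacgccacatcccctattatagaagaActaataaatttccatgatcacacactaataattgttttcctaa

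The mitochondrial and the chromosome 1 sequence are identical over these 100 bases, while the chromosome 2 copy differs at 2 of them. Further upstream, where the chromosome 1 models begin to match within mt-Co1 (chrM:6390-6470, plus strand, against chr1:24616108-24616188, minus strand), the single base by which Gm29216 differs within its aligned stretch is in capitals.
mt-Co1: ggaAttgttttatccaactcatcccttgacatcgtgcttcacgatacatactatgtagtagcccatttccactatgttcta
Gm29216: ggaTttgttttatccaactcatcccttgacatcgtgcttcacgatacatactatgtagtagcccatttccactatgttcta

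Read as windows of 125 bases, the shorter read length in the labels, 97.3% to 99.8% of the windows of mt-Co2, mt-Atp6, mt-Co3, mt-Nd3 and mt-Nd4l occurred letter for letter in an annotated nuclear model. The share was 60% for mt-Nd4, 26.7% for mt-Co1 and 0.5% for mt-Nd2, and 0% for mt-Nd1, mt-Nd5, mt-Nd6, mt-Cytb and both rRNAs. The authors' handling of reads that match several places was not stated in the labels. The split of members by these shares, into near-complete, partial or no copy, was made after their values had been seen. More distant copies, which differ within such windows, do not enter it.

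The 5 genes with near-complete copies had lower levels than the other tested protein-coding genes in each library. As counts per kilobase of gene, scaled to library depth (CPM per kilobase), the tested protein-coding members with no or a partial copy ran from 1000 (mt-Nd6) to 8030 (mt-Co1) in EPO and from 1860 (mt-Nd6) to 11800 (mt-Co1) in Vehicle. The 5 members with a near-complete copy ran from 14.9 (mt-Nd4l) to 134 (mt-Co2) in EPO and from 39.6 (mt-Nd4l) to 314 (mt-Co2) in Vehicle. mt-Co1, the catalytic core of complex IV, stood 59.9-fold above its neighbour mt-Co2, another core subunit of that complex, in EPO and 37.6-fold above it in Vehicle on this scale. What part the handling of such reads has in these low levels was not tested, and levels within the copied stretch are not read as transcript abundance.

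**Figure D1:**
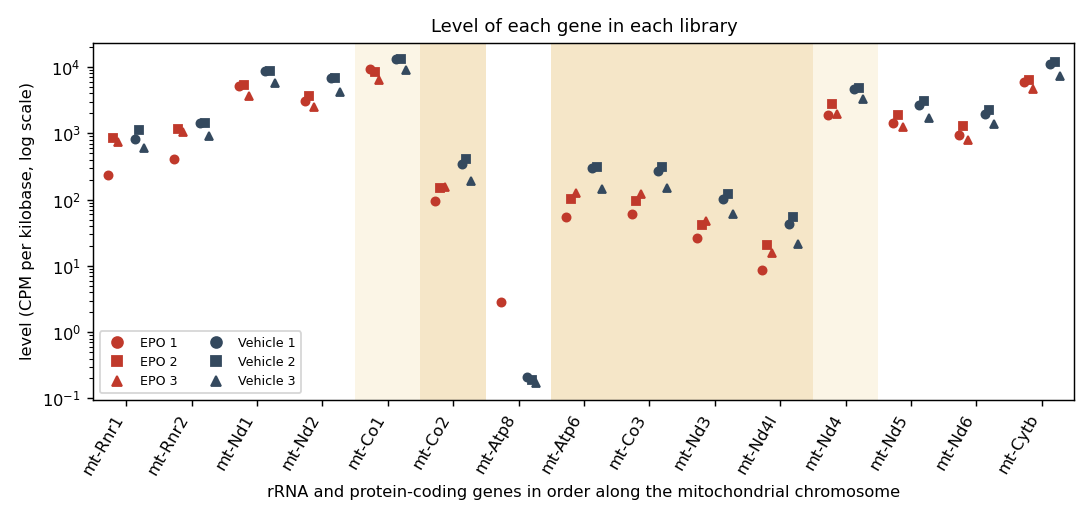
Level of the 2 rRNA and 13 protein-coding genes in each library, as CPM per kilobase on a log axis, with genes in their order along the mitochondrial chromosome and EPO left of Vehicle for each gene. Dark shading marks genes with a near-complete nuclear copy and light shading those with a partial copy; the shaded mt-Co2, mt-Atp6, mt-Co3, mt-Nd3 and mt-Nd4l lie below every other protein-coding gene but mt-Atp8 within each library, and libraries at 0 counts (mt-Atp8 in EPO 2 and EPO 3) are not drawn.

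Within each library, counts were divided between a gene and its near-complete copy, near evenly for mt-Co2, mt-Co3, mt-Nd3 and mt-Nd4l and less evenly for mt-Atp6. mt-Co2 had 2364, 2993 and 3566 counts in EPO 1, 2 and 3 and 5405, 7174 and 3795 counts in Vehicle 1, 2 and 3. Its copy Gm28661 had 2216, 2708 and 3813 counts in EPO and 6013, 6827 and 3704 counts in Vehicle. Of the counts shared by the pair, mt-Co2 held 48.3% to 52.5% in EPO and 47.3% to 51.2% in Vehicle. For mt-Co3 and Gm28437 the share of the mitochondrial gene was 46.2% to 46.3% in EPO and 47% to 47.7% in Vehicle. For mt-Nd3 and Gm28438 it was 48.1% to 55.1% in EPO and 48.1% to 51.3% in Vehicle, and for mt-Nd4l and Gm10222 46.8% to 52% in EPO and 46.6% to 51.3% in Vehicle. mt-Atp6 held 34.2% to 38.6% in EPO and 34.9% to 36.6% in Vehicle beside Gm10925. The partly copied genes kept nearly all counts of their pair, 99.1% to 99.6% for mt-Co1 and 98.6% to 99.4% for mt-Nd4 in EPO, and 98.9% to 99.2% for mt-Co1 and 98.4% to 99% for mt-Nd4 in Vehicle.

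**Figure D2:**
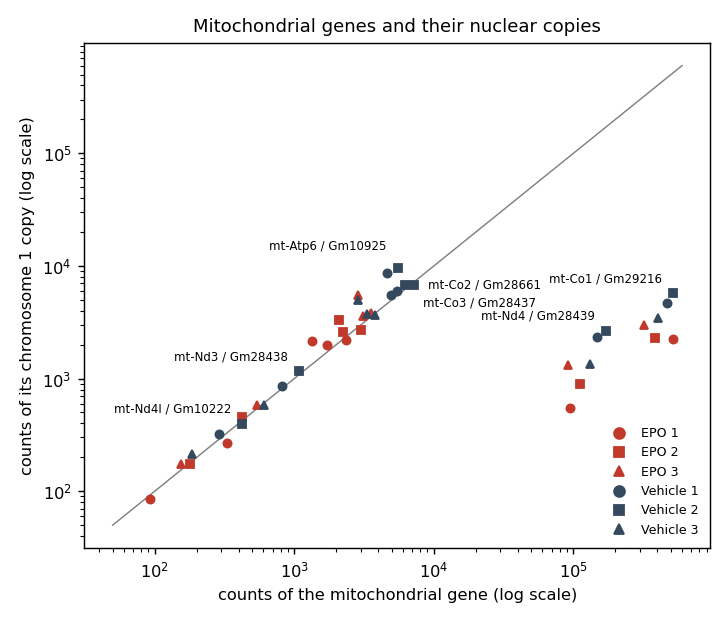
Counts of 7 mitochondrial genes against those of their chromosome 1 copies, both on log axes, with 1 point per library (EPO red, Vehicle dark) and a grey line where the 2 are equal. The 5 genes with a near-complete copy lie on or near the line, mt-Atp6 somewhat above it, and mt-Co1 and mt-Nd4, whose copies cover only part of the gene, lie far to its right.

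As a share of all counts, mitochondrially encoded RNA was lower in every EPO library than in every Vehicle library. It took 3.38%, 4.10% and 2.99% of the counts in EPO 1, 2 and 3, and 6.41%, 6.68% and 4.47% in Vehicle 1, 2 and 3. The means were 3.49% ± 0.559 in EPO and 5.85% ± 1.20 in Vehicle (SD, n = 3 each). The exact permutation test, two-sided, gave p = 0.1, below which this design cannot go, and 0.333 after adjustment over 10 shares and ratios. Vehicle 3 lay nearest to the EPO libraries. In bulk aorta, fewer cells of a mitochondria-rich type and less mitochondrial RNA per cell cannot be told apart.

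Nearly all counts of the members fell on protein-coding genes. The part that library preparation has in the split between mRNA and rRNA was not tested. The shares here and the class ratios below describe counts and are not read as amounts of RNA in the tissue. The 13 protein-coding genes took 3.29%, 3.82% and 2.75% in EPO and 6.10%, 6.33% and 4.25% in Vehicle, again without overlap (exact permutation p = 0.1, two-sided). The 2 rRNA genes took 0.0812%, 0.269% and 0.241% in EPO and 0.2999%, 0.329% and 0.211% in Vehicle, so that the groups overlapped and EPO 1 stood far below the other 5 libraries (exact permutation p = 0.3, two-sided). The tRNA genes took 0.00520%, 0.0105% and 0.00645% in EPO and 0.0132%, 0.0179% and 0.0105% in Vehicle, with EPO 2 just above Vehicle 3 (exact permutation p = 0.2, two-sided).

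**Figure D3:**
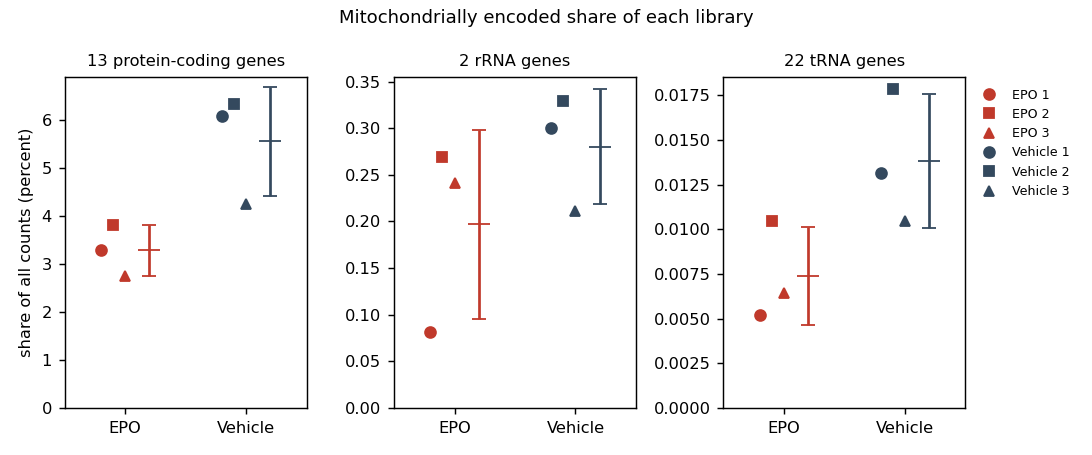
Share of all counts taken by the protein-coding, rRNA and tRNA members, in percent, with 1 point per library and the mean ± SD beside them (n = 3 each), EPO left of Vehicle. The protein-coding shares do not overlap (2.75% to 3.82% in EPO, 4.25% to 6.33% in Vehicle), and EPO 1 is lowest for rRNA at 0.0812%.

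Of the 37 members, 15 had enough counts to be tested gene by gene: 12 protein-coding genes, both rRNAs and the tRNA gene mt-Tp. Of these, 8 were lower with EPO at an adjusted p under 0.05, edgeR's quasi-likelihood test with Benjamini-Hochberg adjustment over all 16522 genes tested, and 0 were higher (12 were lower and 0 higher at an unadjusted p under 0.05; DESeq2 called 13 lower and limma-voom 7, and both 0 higher). Among all tested genes 10.1% were called lower, 12.9% higher and 23% in either direction. Of the same 16522 genes DESeq2 called 2312 lower and 2650 higher, and limma-voom 1588 lower and 1893 higher. The share of all genes at an unadjusted p under 0.05 is not reported here. All 15 fold changes were below 0 on the log2 scale, with a median of -0.90 beside 0.0113 over all genes. The CPM values of 10 of the 15 lay lower in EPO without overlap, against 21% of all genes, and 22.9% of all genes lay higher in EPO without overlap. The 8 called genes comprise all 5 with a near-complete copy, whose counts are also split with chromosome 1, and 3 of the 7 other tested protein-coding genes. The count depended on single libraries: it was 0 without Vehicle 1, 0 without Vehicle 2, 2 without EPO 1, 3 without EPO 2 and 4 without EPO 3. It was 9 without Vehicle 3. Among all tested genes, those called lower numbered 699 without Vehicle 1, 954 without Vehicle 2 and 2016 without EPO 1. They numbered 941 without EPO 2, 1162 without EPO 3 and 1245 without Vehicle 3, beside 1671 with all libraries.

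Complex I takes electrons from NADH, and 7 of its subunits are members. mt-Nd2, a membrane-arm subunit (chrM:3914-4951, plus strand), had 3161, 3796 and 2626 CPM in EPO 1, 2 and 3 and 7153, 7184 and 4351 CPM in Vehicle 1, 2 and 3. The groups did not overlap, and mt-Nd2 fell to 0.51 of its Vehicle level (log2 fold change -0.96, SE 0.27, edgeR adjusted p = 0.0408). mt-Nd4, another membrane-arm subunit (chrM:10167-11544, plus strand), had 2651, 3814 and 2728 CPM in EPO and 6427, 6662 and 4508 CPM in Vehicle, and it also fell (log2 fold change -0.94, SE 0.25, edgeR adjusted p = 0.0357). mt-Nd6 (chrM:13552-14070) is the only protein-coding gene on the minus strand of the annotation. It had 489, 660 and 410 CPM in EPO and 1021, 1167 and 715 CPM in Vehicle and fell (log2 fold change -0.90, SE 0.25, edgeR adjusted p = 0.0396). Because no strand marking is named for the library kit, RNA of the opposite strand cannot be told apart from mt-Nd6 mRNA. With 1 library left out, the call held in 1 of 6 fits for mt-Nd2 and in 2 of 6 for mt-Nd4 and mt-Nd6. For the called members with a near-complete copy it held in 1 (mt-Nd4l) to 3 (mt-Nd3 and mt-Co3) of 6.

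mt-Nd1 and mt-Nd5 did not pass. mt-Nd1, which helps to form the quinone site of complex I (chrM:2751-3707, plus strand), had 5024, 5081 and 3542 CPM in EPO and 8433, 8459 and 5493 CPM in Vehicle, without overlap (log2 fold change -0.71, SE 0.27, edgeR adjusted p = 0.0940). mt-Nd5, a proton-pumping subunit (chrM:11742-13565, plus strand), had 2566, 3401 and 2250 CPM in EPO and 4849, 5622 and 3113 CPM in Vehicle, and EPO 2 lay above Vehicle 3 (log2 fold change -0.73, SE 0.28, edgeR adjusted p = 0.105). The small subunits mt-Nd3 and mt-Nd4l, both in the copied stretch, were called lower. mt-Nd3 had 9.15, 14.3 and 16.4 CPM in EPO and 35.3, 41.8 and 20.9 CPM in Vehicle (log2 fold change -1.30, SE 0.30, edgeR adjusted p = 0.0216). mt-Nd4l had 2.59, 6.04 and 4.66 CPM in EPO and 12.5, 16.4 and 6.42 CPM in Vehicle (log2 fold change -1.41, SE 0.41, edgeR adjusted p = 0.0464).

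mt-Cytb, the cytochrome b of complex III and the only subunit of that complex encoded in mitochondria (chrM:14145-15288, plus strand), had 6865, 7222 and 5319 CPM in EPO and 12569, 13647 and 8419 CPM in Vehicle. These ranges do not overlap, but the gene did not pass the threshold (log2 fold change -0.84, SE 0.27, edgeR adjusted p = 0.0622). Complex IV reduces oxygen, and its 3 core subunits are members. mt-Co1 (chrM:5328-6872, plus strand), the member with the highest level, had 14444, 13069 and 9689 CPM in EPO and 20510, 20127 and 13961 CPM in Vehicle, with EPO 1 above Vehicle 3 (log2 fold change -0.55, SE 0.28, edgeR adjusted p = 0.196). mt-Co2, which receives electrons from cytochrome c, had 65.9, 102 and 107 CPM in EPO and 235, 279 and 131 CPM in Vehicle and was called lower (log2 fold change -1.23, SE 0.30, edgeR adjusted p = 0.0262). mt-Co3, the remaining core subunit, was called lower too, with 47.8, 75.8 and 93.8 CPM in EPO and 215, 243 and 115 CPM in Vehicle (log2 fold change -1.40, SE 0.33, edgeR adjusted p = 0.0234).

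mt-Atp6, the subunit of ATP synthase that forms its proton path, had 37.6, 70.5 and 85.9 CPM in EPO and 202, 215 and 99.5 CPM in Vehicle (log2 fold change -1.41, SE 0.37, edgeR adjusted p = 0.0332). Its partner mt-Atp8 lies on the same mRNA, and the end of mt-Atp8 is the start of mt-Atp6. The mt-Atp8 sequence (chrM:7766-7969, plus strand) is shown with the 43 bases that both genes hold in capitals.
mt-Atp8: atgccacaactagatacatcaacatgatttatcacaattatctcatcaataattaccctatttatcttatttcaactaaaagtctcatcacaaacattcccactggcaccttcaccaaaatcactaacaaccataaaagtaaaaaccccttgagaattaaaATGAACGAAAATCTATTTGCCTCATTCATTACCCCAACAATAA

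mt-Atp8 had 21, 0 and 0 counts in EPO 1, 2 and 3 and 1 count in each Vehicle library, too few to be tested. No annotated nuclear model covers it beyond the capitals, but it lies inside the copied stretch, in the 233 bases that separate the matches to mt-Co2 and mt-Atp6 both on chromosome 1 and on the mitochondrial chromosome. EPO 1 was the only library with more than 1 count.

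**Figure D4:**
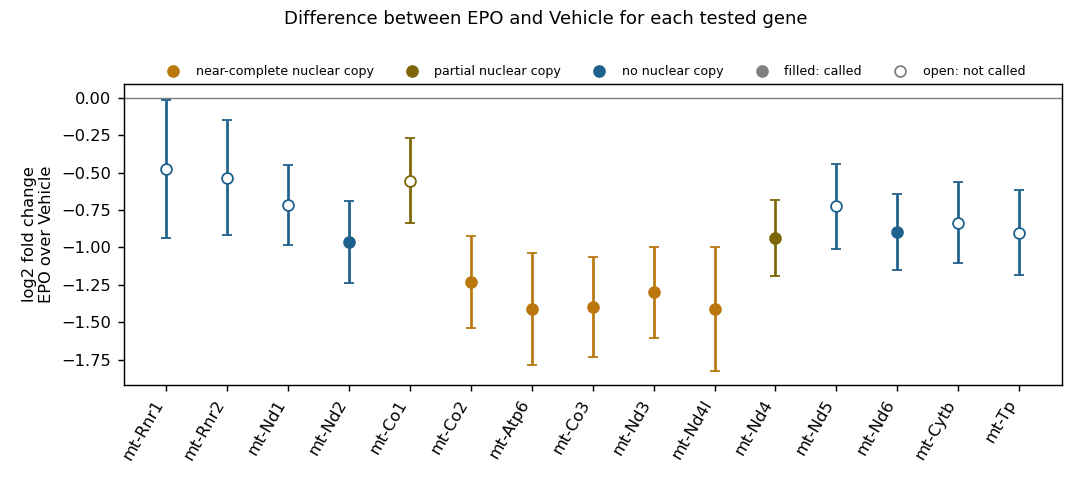
Log2 fold change of EPO over Vehicle for the 15 tested members in their order along the mitochondrial chromosome, with the SE of the edgeR fit as bars. All lie below 0; filled points passed an adjusted p of 0.05, and the 5 genes with a near-complete nuclear copy lie between -1.41 and -1.23.

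The lowest EPO library was not the same for all members. EPO 1 was lowest for the 5 members with a near-complete copy, but also for mt-Nd4, both rRNAs and mt-Tp, and EPO 3 was lowest for mt-Nd1, mt-Nd2, mt-Nd5, mt-Nd6, mt-Cytb and mt-Co1. Of these, all but mt-Co1 are the 5 genes called uncopied here. Among them mt-Nd2 has the more distant copy Gm13339. More distant copies of mt-Nd5, mt-Nd6 and mt-Cytb had between 0 and 15 counts each over all libraries. The counts of the 5 copied genes over those of the 5 uncopied genes were 0.00901, 0.0133 and 0.0218 in EPO 1, 2 and 3 and 0.0206, 0.0220 and 0.0169 in Vehicle 1, 2 and 3. On the log2 scale the means were -6.18 ± 0.638 in EPO and -5.67 ± 0.198 in Vehicle (SD, n = 3 each), a difference of -0.52 (exact permutation p = 0.3, two-sided). The median log2 fold change was -1.40 over the copied and -0.84 over the uncopied genes, and the ratio of EPO 3 was close to that of Vehicle 2. Without EPO 1 the difference of the log2 ratio was -0.21, and without EPO 3 it was -0.85. The labels give read lengths of 125 and 150 bases without saying which library had which.

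All 7 chromosome 1 copies were themselves called lower with EPO, beside 10.1% of all tested genes, with log2 fold changes from -1.56 to -1.24. Over their matched stretches they equal the members or differ at 1 base, so these calls are not results separate from those of the members. On chromosome 2, Gm13339, a copy of part of mt-Nd2 at 96.67% identity, was called lower (log2 fold change -1.49, edgeR adjusted p = 0.0258). Its counts were low, at 14, 25 and 21 in EPO and 39, 51 and 45 in Vehicle. Gm13340, a copy of mt-Co1 at 97.6% identity, had 212, 249 and 185 counts in EPO and 263, 304 and 222 counts in Vehicle and did not pass (log2 fold change -0.63, edgeR adjusted p = 0.108). Gm13341, the mt-Co2 copy at 95.91% identity printed above, had 133, 192 and 78 counts in EPO and 111, 122 and 81 counts in Vehicle (log2 fold change 0.02, SE 0.41, edgeR adjusted p = 0.974). The 5 remaining models had between 0 and 15 counts in all.

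The rRNAs form the cores of the mitochondrial ribosome subunits. mt-Rnr1, the 12S rRNA of the small subunit (chrM:70-1024, plus strand), had 223, 823 and 697 CPM in EPO and 776, 1073 and 573 CPM in Vehicle. mt-Rnr2, the 16S rRNA of the large subunit (chrM:1094-2675, plus strand), had 649, 1808 and 1660 CPM in EPO and 2258, 2239 and 1460 CPM in Vehicle. EPO 1 held the lowest value of both, and EPO 2 and EPO 3 lay within the Vehicle range. Neither passed (log2 fold change -0.47, SE 0.46, edgeR adjusted p = 0.494 for mt-Rnr1, and -0.53, SE 0.39, edgeR adjusted p = 0.357 for mt-Rnr2). Both are transcribed from the heavy strand ahead of the mRNAs.

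Counts of mt-Rnr2 over mt-Rnr1 were 2.90, 2.20 and 2.38 in EPO and 2.91, 2.09 and 2.55 in Vehicle, so the groups overlapped (exact permutation p = 0.9, two-sided). The rRNAs over the protein-coding genes gave 0.0247, 0.0705 and 0.0877 in EPO and 0.0492, 0.0520 and 0.0497 in Vehicle. The 3 Vehicle libraries lay close together here and the 3 EPO libraries lay on either side of them, with a log2 SD of 0.979 in EPO and 0.0429 in Vehicle (exact permutation p = 1, two-sided). EPO 1, with the lowest ratio, was also the deepest library at 38502430 counts. mt-Nd6 over the 12 protein-coding genes of the other strand gave 0.0140, 0.0180 and 0.0155 in EPO and 0.0168, 0.0187 and 0.0178 in Vehicle, which overlapped (exact permutation p = 0.3, two-sided).

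Among the tRNA genes, 59 to 75 bases long, 21 of 22 had 0 counts in every library. By counting error alone, 0 counts leave room for a level of up to 0.0779 CPM in EPO 1 and 0.129 CPM in Vehicle 1, the extremes of depth. These limits are 3 counts over the unscaled library total. The exception was mt-Tp, the proline tRNA on the minus strand (chrM:15356-15422), which is the last gene of the annotation and is followed by the noncoding control region. mt-Tt, the threonine tRNA that touches it on the plus strand (chrM:15289-15355), lies next to mt-Cytb and had 0 counts. Their sequences, each read 5′ to 3′ on its own strand, are printed because these neighbours have the same length of 67 bases and 1 of them held counts while the other held 0.
mt-Tp: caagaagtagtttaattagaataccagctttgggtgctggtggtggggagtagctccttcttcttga
mt-Tt: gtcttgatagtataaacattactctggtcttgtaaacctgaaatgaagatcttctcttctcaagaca

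mt-Tp had 2002, 3022 and 2100 counts in EPO, or 55.8, 103 and 63.1 CPM, and 3063, 4617 and 2923 counts in Vehicle, or 133, 180 and 100.9 CPM. EPO 2 lay just above Vehicle 3, and the gene missed the threshold (log2 fold change -0.90, SE 0.29, edgeR adjusted p = 0.0589). Both read lengths in the labels exceed the length of every tRNA gene, and the counting rule was not stated in the labels, so these counts are not taken as amounts of mature tRNA. The ratio of tRNA to protein-coding counts was 0.00158, 0.00275 and 0.00235 in EPO and 0.00216, 0.00282 and 0.00246 in Vehicle (exact permutation p = 0.6, two-sided).

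The make-up of the protein-coding counts was compared inside each library, where scaling between libraries plays no part. mt-Co1 held 40.8%, 35.0% and 36.1% of them in EPO and 33.3%, 31.6% and 34.1% in Vehicle, higher in every EPO library. mt-Cytb held 19.4%, 19.4% and 19.8% in EPO and 20.4%, 21.4% and 20.6% in Vehicle, mt-Nd2 8.94%, 10.2% and 9.77% in EPO and 11.6%, 11.3% and 10.6% in Vehicle, and mt-Nd4 7.50%, 10.2% and 10.2% in EPO and 10.4%, 10.5% and 11.0% in Vehicle, each lower in every EPO library. For these 4 genes the exact permutation p was 0.1, two-sided, the smallest possible, or 0.325 adjusted over the 13 shares, and the other 9 shares overlapped between the groups. mt-Nd1 held 14.2%, 13.6% and 13.2% in EPO and 13.7%, 13.3% and 13.4% in Vehicle. Shares within a library sum to a fixed whole, so a higher mt-Co1 share and lower shares of other genes are not separate results.

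The nuclear-encoded subunits of the same complexes were compared next. Of 70 tested, 6 were called lower, beside the 10.1% of all genes called lower, and 0 higher, and 65 lay below 0 (median log2 fold change -0.42). The 6 were Ndufb3 (log2 fold change -0.77, SE 0.15, edgeR adjusted p = 0.0132), Ndufv2 (-0.67), Ndufa9 (-0.68) and Ndufb9 (-0.68) of complex I, Uqcrb (-0.61) of complex III and Cox7a2 (-0.50) of complex IV; Ndufa9 was named after its values were seen. The number called lower was 20 with DESeq2 and 12 with scaling by library size alone, beside 2312 and 1693 of all tested genes. With single libraries left out, subunits called lower ran from 0 (without Vehicle 1) to 20 (without EPO 1). Genes called lower among all tested numbered 699 and 2016 in those fits. Subunits called lower numbered 18 without Vehicle 3 and 1 without EPO 2, EPO 3 or Vehicle 2, and 1 subunit was called higher without EPO 3. Next by p within the list of their own complex, and not passing, were Uqcrc2 (-0.66) and Uqcrc1 (-0.67), core proteins of complex III, and Cox6c (-0.50) and Cox8a (-0.63) of complex IV. In ATP synthase they were Atp5b (-0.69), the catalytic beta subunit, Atp5j2 (-0.42) and Atp5c1 (-0.37). By complex, the median of the mitochondrial and of the nuclear subunits was -0.94 and -0.39 in complex I, -0.84 (mt-Cytb alone) and -0.56 in complex III, -1.23 and -0.50 in complex IV, and -1.41 (mt-Atp6 alone) and -0.27 in ATP synthase. The mitochondrial medians of complexes I and IV and of ATP synthase are values of genes in the copied stretch (mt-Nd4, mt-Co2 and mt-Atp6).

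Summed per library, the mitochondrial protein-coding counts were 3.32, 4.33 and 3.69 times those of the nuclear subunits in EPO and 4.82, 4.57 and 4.52 times in Vehicle. This ratio was lower in every EPO library, with means of 1.91 ± 0.194 in EPO and 2.21 ± 0.0496 in Vehicle on the log2 scale (SD, n = 3 each), a difference of -0.30 (exact permutation p = 0.1, two-sided, the smallest possible, and 0.333 adjusted over 10 shares and ratios). In complex II, which has no mitochondrially encoded subunit, Sdhc was called lower (log2 fold change -0.63, SE 0.16, edgeR adjusted p = 0.0275) and Sdha (-0.71), Sdhd and Sdhb did not pass.

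**Figure D5:**
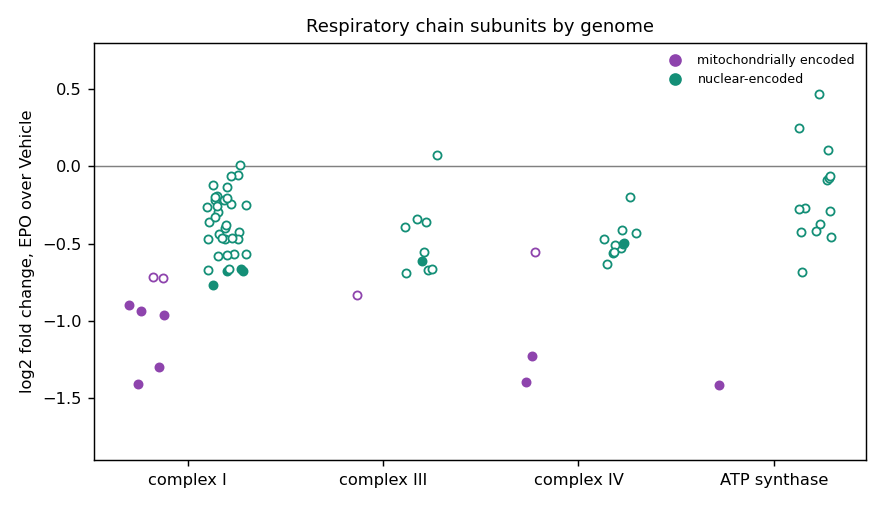
Log2 fold change of EPO over Vehicle for respiratory chain subunits, grouped by complex, with mitochondrially encoded subunits left of nuclear-encoded ones; filled points passed an adjusted p of 0.05. The mitochondrially encoded subunits lie between -1.41 and -0.55, and the nuclear-encoded ones between -0.77 and 0.47.

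Genes that make and maintain mitochondrial RNA were examined in the same fit. Among all 16522 tested genes edgeR called 1671 lower and 2133 higher, DESeq2 2312 and 2650, and limma-voom 1588 and 1893. Of 14 genes of mitochondrial transcription and replication edgeR called 0 (median log2 fold change -0.12). DESeq2 called 1 lower and limma-voom 0, and at an unadjusted p under 0.05 there were 2 lower (Mterf3, -0.47, and Tfb2m, -0.44) and 1 higher (Polg, the DNA polymerase, 0.35). Polrmt, the mitochondrial RNA polymerase, had 29.9 ± 7.42 CPM in EPO and 30.9 ± 3.73 CPM in Vehicle (SD, n = 3 each; log2 fold change -0.05, SE 0.19, edgeR adjusted p = 0.882). Tfam, which packages the genome and starts transcription, had 25.6 ± 1.34 CPM in EPO and 25.8 ± 4.03 CPM in Vehicle (SD, n = 3 each; log2 fold change -0.01, SE 0.15, edgeR adjusted p = 0.969). Of 17 genes of RNA processing and stability edgeR and limma-voom called 0 and DESeq2 1 lower, with 1 at an unadjusted p under 0.05 (median -0.23). Hsd17b10, a subunit of the mitochondrial RNase P, was that gene (log2 fold change -0.50, SE 0.16, edgeR adjusted p = 0.0540). Lrpprc and Slirp, partners that stabilise mitochondrial mRNAs, had log2 fold changes of -0.33 (SE 0.15, edgeR adjusted p = 0.156) and -0.21 (SE 0.19, edgeR adjusted p = 0.451). Of 21 mitochondrial ribosomal proteins edgeR, DESeq2 and limma-voom called 0, with 3 lower at an unadjusted p under 0.05 (median -0.14), Mrps30 (-0.36), Mrps5 (-0.37) and Mrps9 (-0.31). Fastkd1, of the RNA processing list, stood at -0.45 and did not pass.

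Among 12 regulators of mitochondrial biogenesis, Prkaa2, a catalytic subunit of the energy sensor AMPK, was called lower (8.46 CPM in EPO and 20.8 CPM in Vehicle on average, log2 fold change -1.30, SE 0.17, edgeR adjusted p = 0.00346), and it passed with any 1 library left out. Pprc1, a coactivator related to PGC-1α, was called higher (44.5 CPM in EPO and 31.1 CPM in Vehicle on average, log2 fold change 0.52, SE 0.15, edgeR adjusted p = 0.0426), but passed in only 1 of the 6 fits with a library left out. Ppargc1a, which encodes PGC-1α, the coactivator best known for driving mitochondrial biogenesis, had 3.46, 6.21 and 4.42 CPM in EPO and 6.82, 21.5 and 8.59 CPM in Vehicle. Its groups did not overlap and it did not pass (log2 fold change -1.39, SE 0.45, edgeR adjusted p = 0.0639). Of 14 genes taken as a measure of mitochondrial mass, Cs, citrate synthase of the Krebs cycle, was called lower (log2 fold change -0.75, SE 0.23, edgeR adjusted p = 0.0493) and 13 were not called (median -0.15), among them Hspa9 (-0.52). The call of Cs held in 1 of 6 fits with a library left out, and that of Sdhc in 2 of 6.

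Markers of several cell types moved with the groups, and their part in the mitochondrial values was not tested. Counts of called markers, here and in the next paragraph, stand beside 10.1% of all tested genes called lower and 12.9% called higher. The summed level of 12 brown adipocyte genes was 1040, 895 and 500 CPM in EPO 1, 2 and 3 and 1860, 2400 and 802 CPM in Vehicle 1, 2 and 3, with 4 of 12 called lower and none of the 12 at 0 in any library. Ucp1, the uncoupling protein that defines brown fat, had 527, 385 and 202 CPM in EPO and 813, 1049 and 297 CPM in Vehicle and did not pass (log2 fold change -0.96, SE 0.49, edgeR adjusted p = 0.204). Vehicle 3 and EPO 3, the libraries with the lowest mitochondrial share of their group, were also those with the lowest brown adipocyte sum of their group. EPO 1 and EPO 2 had a higher brown adipocyte sum than Vehicle 3 and a lower mitochondrial share. The genes of the list were not alike in this. Cidea had 115, 88.2 and 128 CPM in EPO 1, EPO 2 and Vehicle 3, and Fabp3 had 72.9, 108 and 35.6 CPM. White adipocyte genes summed to 4770 to 5900 CPM in EPO and 6440 to 17200 CPM in Vehicle, with 7 of 12 called lower.

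Of 8 smooth muscle genes 8 were called lower (sums of 7230 to 9340 CPM in EPO and 20100 to 28500 CPM in Vehicle), and of 8 fibroblast genes 5 were called higher (58900 to 78300 CPM in EPO and 13400 to 16900 CPM in Vehicle). Skeletal muscle genes, from another mitochondria-rich tissue, moved the other way from the mitochondrial share, with 11 of 11 tested called higher and sums of 1290, 3240 and 405 CPM in EPO and 17.2, 8.28 and 15.9 CPM in Vehicle. EPO 2, with the most skeletal muscle counts, had the highest mitochondrial share of the 3 EPO libraries. Heart muscle genes (41.8 to 101 CPM in EPO, 47.8 to 194 CPM in Vehicle), with 1 of 7 called lower, and red cell genes (492 to 1460 CPM in EPO, 759 to 1550 CPM in Vehicle), with 0 of 7 called, overlapped. Macrophage sums were 3750 to 8180 CPM in EPO and 1700 to 3500 CPM in Vehicle, with 1 of 8 called higher and EPO 1 the highest, and endothelial sums were 1050 to 1570 CPM in EPO and 1350 to 1470 CPM in Vehicle, with 3 of 8 called higher and 1 lower.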

How the data were processed

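The deposited file holds unnormalized counts, 1 row per Ensembl gene and 1 column for each of 6 libraries; the columns abbreviated Con were read as Vehicle. Which counting tool, strand setting and annotation release were used was not stated. Per the submitters' processing notes, base calling used CASAVA 1.8 and alignment TopHat2 2.0.6 on mm10. Symbols and coordinates came from GENCODE M21 (GRCm38, the assembly of mm10); 47224 IDs matched and 419 did not.

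Members were all symbols starting with mt-. The members, the lists and the naming rule (all members; up to 3 tested genes of smallest p per list of nuclear mitochondrial genes; 5 fixed regulators) were chosen with earlier results of these data known. Counts were tested in R 4.3.3 with edgeR 4.0.16 (filterByExpr, TMM scaling, glmQLFit and glmQLFTest, two-sided, Benjamini-Hochberg adjustment over 16522 genes); the fit was tested on simulated data. The SE is the log2 fold change over the square root of F. CPM uses TMM-scaled totals, except for the limits at 0 counts, which are 3 counts over the unscaled total. Shares and ratios used exact permutation tests. Nuclear copies were found with blastn 2.17.0 among annotated transcripts, since a genome was not used here. Models absent from the count table or not reported here may also meet the matching rule. DESeq2 1.42.0, limma-voom (limma 3.58.1), other scalings and filters, a replicate block and each library left out were alternatives. Prorp and Atp5pb, from the gene lists, were not found by symbol. Another gene that the naming rule picks is not reported here. Limits at 0 counts reflect counting error alone, because PCR copies of a molecule could not be recognised.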

Additional observations from a re-analysis of the deposited data

How the results depend on the processing

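All 15 tested members kept a log2 fold change below 0 under every one of the 16 alternative fits, while calls depended on the fit. The number of members called lower was 8 and stayed at 8 with DESeq2 size factors, library size alone, scaling over nuclear genes, a filter of 1 CPM in 3 libraries and with members summed with their chromosome 1 copies (chosen after seeing the data). It was 10 with no filter on low counts, 7 with limma-voom, 11 at an adjusted p under 0.1 and 13 with DESeq2. All genes called lower numbered 1786, 1588, 2480 and 2312 in the same order, beside 1671 in the main fit. With single libraries left out the number of members called lower ran from 0 to 9. Without both EPO 1 and EPO 2 (chosen after seeing the data) EPO has 1 library, assumed to vary like Vehicle; 0 members were then called, beside 463 lower and 1085 higher among all genes, while the median log2 fold change of members was -1.02 against -0.90. Same-numbered libraries are not known to share more than a number. Correlations of their deviations were -0.009, -0.01 and 0.127, the last (EPO 3 with Vehicle 3) being the highest of all pairs. Whether libraries were paired cannot be told from these values. With the replicate number as a block 2 members were called (mt-Nd6 and mt-Tp), beside 1254 lower and 1630 higher among all genes. The cause of these changes was not tested. Members called higher numbered 0 under every fit. With single libraries left out, genes called lower ran from 699 to 2016 and genes called higher from 936 to 2265. mt-Rnr1, with log2 fold changes from -0.81 to -0.10, and mt-Rnr2, from -0.78 to -0.21, were called in 0 of 16 fits. Shares and ratios moved by less than 1 pooled SD under their alternatives, but the log2 ratio of rRNA to protein-coding counts, with a difference of 0.09, stood at 0.65 without EPO 1, -0.11 without EPO 2 and -0.27 without EPO 3. The ratios of mt-Rnr2 to mt-Rnr1 and of tRNA to protein-coding counts also took either sign with libraries left out. The medians per kilobase could not be formed for the tRNA ratio, where the median is 0, and were not run for the ratio to nuclear subunits. The depth limit for a gene at 0 counts was 0.0779 to 0.129 CPM.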
